A study of Mus musculus with 48 samples.

Results

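Transcripts of fat cells and of the hormones they secrete were followed in RNA-seq libraries of mouse gastrocnemius, the large muscle of the calf. The 10 genes were Adipoq, Retn, Lep and Cfd, which encode secreted proteins, Plin1, Cidec, Lipe and Fabp4, which act in the storage and release of fat, the nuclear receptor gene Pparg and the enzyme gene Cdo1. They were taken by symbol from the 54532 genes of the deposited count table. All 10 passed the filter on low counts, which left 15583 genes for testing. The genes were picked with their higher counts at the high dose already known, so values of that contrast are given as a description, with a standard error and no p-value.

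The mice had received perfluorooctane sulfonate (PFOS), a long-lived surfactant of the perfluoroalkyl class, by oral gavage for 21 days. The 2 genotypes were hCYP2B6-Tg, named for the human drug-metabolising enzyme CYP2B6, and Cyp2b-null, named for the loss of mouse Cyp2b enzymes. The sources used here do not give the promoter of the transgene, the genes deleted or the age of the mice. The group given 0 mg/kg/day held 4 females and 5 males of hCYP2B6-Tg, and 4 females and 4 males of Cyp2b-null. With 1 mg/kg/day each of these 4 strata of genotype and sex held 4 mice. The group given 10 mg/kg/day held 4 females and 4 males of hCYP2B6-Tg, and 4 females and 3 males of Cyp2b-null. With 1 library per labelled replicate this gave 48 libraries in 12 groups.

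White fat cells store triglyceride in a large lipid droplet, whose coat protein perilipin 1 controls access of lipases, and they secrete hormones that report the size of the fat stores. The nuclear receptor PPARγ directs their formation and switches on many of the genes named here. In skeletal muscle such cells lie between the fibre bundles and are few in young healthy animals. In a bulk library, fewer cells of a type and less RNA per cell cannot be told apart.

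Total counts were 11571142 to 19921061 per library. Muscle fibre transcripts were abundant in every library: the summed level of Acta1, Ckm, Myh4, Mylpf, Tnnt3 and Actn3 was 123000 to 191000 CPM (counts scaled to the size of the library) at 0, 126000 to 185000 at 1 and 73100 to 147000 at 10 mg/kg/day. The extraction text of the labels names liver, while the tissue label is gastrocnemius; the liver transcript Alb had at most 224 counts in 47 libraries and 27859 in Cyp2b-null male replicate 2 of the 1 mg/kg/day group. The lymph node gene Glycam1 had 41 to 790 counts in 5 libraries, which were hCYP2B6-Tg female replicate 4 of the 0 mg/kg/day group and hCYP2B6-Tg female replicate 1, hCYP2B6-Tg male replicate 3, Cyp2b-null female replicate 3 and Cyp2b-null male replicate 3 of the 10 mg/kg/day group. Values without these 6 libraries stand beside the results they moved most. Within each stratum the numbers in the library names rise with dose without overlap; the labels do not say what the numbers stand for, and dose and number cannot be told apart.

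Upstream sequences were read because the genes varied together. RefSeq (GRCm38.p6) gave the 250 bases before the start of 8 of the 10 genes; Fabp4 had no entry, and the window of Cdo1 is not shown. Letters of 4 known promoter elements were searched on both strands: AGGTCA, the unit bound by PPARγ and other nuclear receptors, TTGCNNAA, the core bound by C/EBP factors, TATAAA and CCAAT. Retn, Cfd, Cidec and Lipe had no match, and the 4 windows with a match are printed from 5′ to 3′ on the strand of the gene, with the matching letters in capitals. They are those of Adipoq (chr16:23146286-23146535, plus strand), Plin1 (chr7:79732777-79733026, minus strand), Lep (chr6:29059971-29060220, plus strand) and Pparg (chr6:115360894-115361143, plus strand).
Adipoq: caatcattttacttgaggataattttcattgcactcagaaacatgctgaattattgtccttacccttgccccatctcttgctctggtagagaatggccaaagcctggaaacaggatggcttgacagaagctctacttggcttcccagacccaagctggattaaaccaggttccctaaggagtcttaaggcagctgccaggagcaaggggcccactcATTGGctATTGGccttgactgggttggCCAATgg
Plin1: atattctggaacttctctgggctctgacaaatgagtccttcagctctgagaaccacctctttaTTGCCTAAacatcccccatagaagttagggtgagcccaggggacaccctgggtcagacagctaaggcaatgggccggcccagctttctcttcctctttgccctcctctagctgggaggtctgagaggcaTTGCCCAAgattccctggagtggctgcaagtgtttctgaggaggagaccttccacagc
Lep: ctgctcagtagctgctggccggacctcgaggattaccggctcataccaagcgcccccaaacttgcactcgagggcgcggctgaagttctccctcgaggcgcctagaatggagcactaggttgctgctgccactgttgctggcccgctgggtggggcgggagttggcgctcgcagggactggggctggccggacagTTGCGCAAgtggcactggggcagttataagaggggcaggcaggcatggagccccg
Pparg: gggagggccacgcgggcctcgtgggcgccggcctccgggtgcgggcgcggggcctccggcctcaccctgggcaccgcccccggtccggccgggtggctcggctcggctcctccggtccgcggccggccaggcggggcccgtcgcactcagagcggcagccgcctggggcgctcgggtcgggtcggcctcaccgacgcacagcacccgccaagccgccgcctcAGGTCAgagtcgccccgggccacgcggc
In the Adipoq window the capitals mark CCAAT, as its reverse complement from 34 and from 27 bases before the start and forward from 7 bases before it. In Plin1 and Lep they mark TTGCNNAA; the match in Lep reads the same on both strands. In Pparg they mark AGGTCA. The RefSeq starts of Plin1 and Pparg lie downstream of the gene starts of the count table, so part of each window lies inside the gene as deposited. That of Lipe lies 2723 bases downstream, so its whole window, which had no match, lies inside the gene as deposited. AGGTCA was present in 1 of 8 windows against 14% of 32851 windows of all genes, TTGCNNAA in 2 of 8 against 9.56%, TATAAA in 0 of 8 against 12.4%, and CCAAT in 1 of 8 against 33.8%. No searched element was shared by more than 2 of the 8 windows.

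Adipoq (ENSMUSG00000022878, chr16:23146536-23158028, GRCm38 as in the count table) encodes adiponectin, a hormone made by fat cells. In hCYP2B6-Tg females its level was 4.92, 3.52, 6.70 and 22.5 CPM at 0, then 77.1, 2.37, 3.45 and 7.76 CPM at 1, and 27.1, 4.97, 105.4 and 41.8 CPM at 10 mg/kg/day. In hCYP2B6-Tg males it was 5.15, 0.0848, 3.15, 0.79 and 14.6 CPM at 0, then 69.5, 31.2, 14.9 and 7.97 CPM at 1, and 2.57, 112, 53.7 and 19.7 CPM at 10 mg/kg/day. In both strata 3 of the 4 libraries at 10 mg/kg/day lay above every library at 0, and the remaining one lay among them. In Cyp2b-null females the values were 15.9, 0.549, 1.21 and 3.01 CPM at 0, then 2.54, 1.54, 6.44 and 2.11 CPM at 1, and 105.2, 26.9, 65.5 and 8.75 CPM at 10 mg/kg/day. In Cyp2b-null males they were 16.2, 8.04, 5.77 and 2.12 CPM at 0, then 0.734, 0.722, 0.583 and 3.33 CPM at 1, and 14.4, 17.2 and 67.4 CPM at 10 mg/kg/day. In Cyp2b-null females 3 of 4 and in Cyp2b-null males 2 of 3 libraries at 10 mg/kg/day lay above every library of their stratum at 0. The level at 10 relative to 0 mg/kg/day, averaged over strata, was 2.72 ± 0.53 (log2 fold change ± SE, 36 residual degrees of freedom), a 6.57-fold difference. Over all 48 libraries Adipoq spanned a 1319-fold range, with 1 count in the lowest and 2195 counts in the library with the most.

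**Figure D1:**
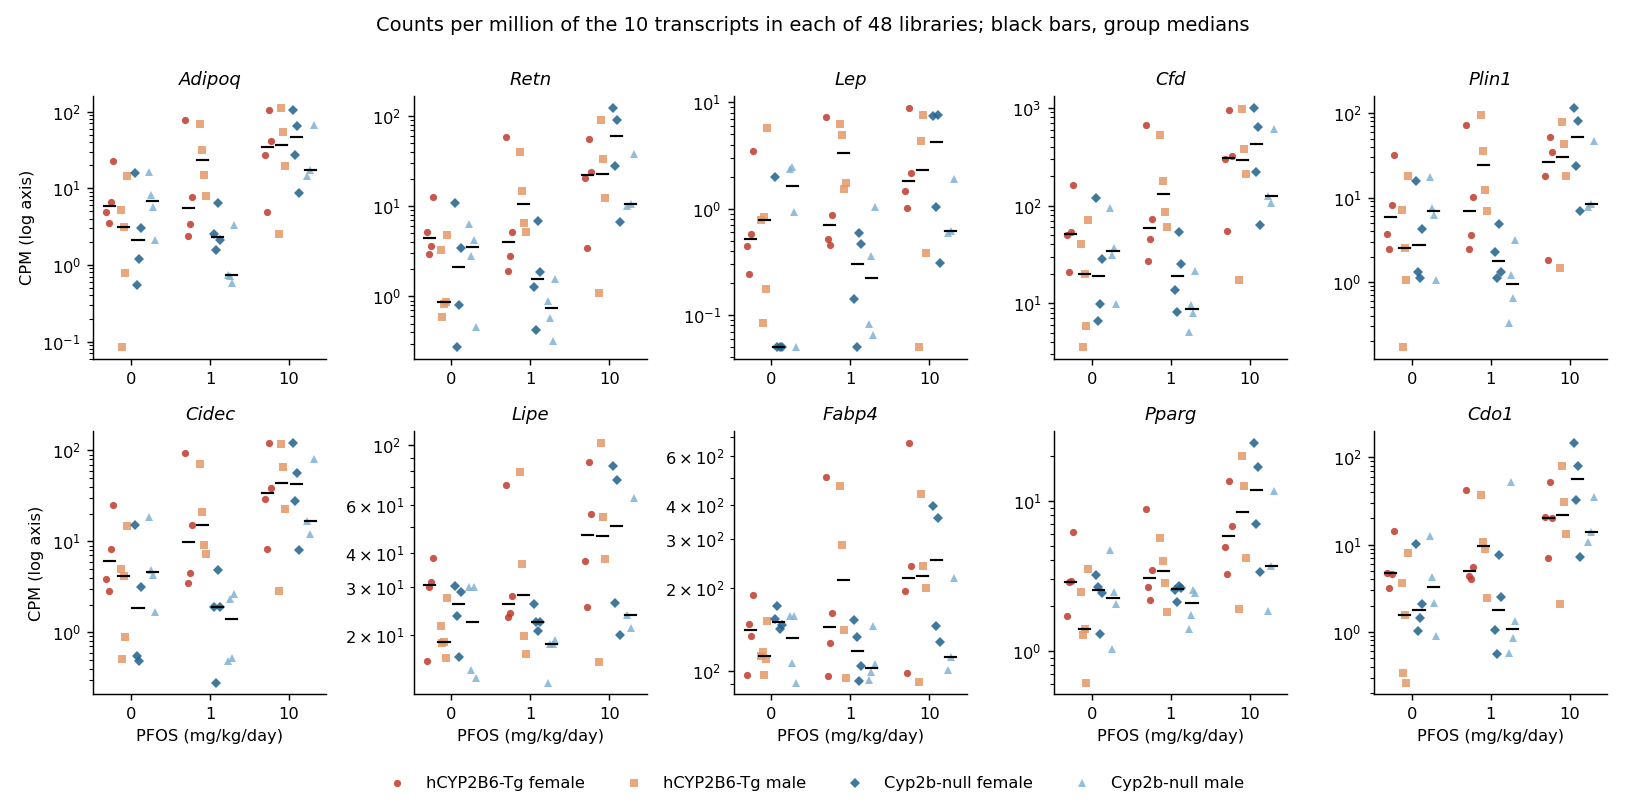
Level of each of the 10 transcripts in every library, in CPM on a log axis, by PFOS dose (mg/kg/day); symbols mark the 4 strata of genotype and sex, black bars are group medians, and Lep at 0 counts is drawn at 0.05 CPM. Of the 15 libraries at 10 mg/kg/day, 4 (Lep) to 12 (Retn and Cfd) exceed the highest library at 0 of their stratum, and single libraries at 1 mg/kg/day reach the high range.

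Retn (ENSMUSG00000012705, chr8:3655770-3660110) encodes resistin, which mouse fat cells secrete. Its lowest, median and highest levels were 0.275, 3.25 and 12.7 CPM at 0, and 0.324, 2.37 and 57.7 CPM at 1 mg/kg/day (n = 17 and 16 libraries). With 10 mg/kg/day the lowest was 1.08 and the median 23.7 CPM (n = 15), and Cyp2b-null female replicate 1 was highest with 2181 counts. Among the 4 strata, Cyp2b-null males showed no overlap, with 10.2, 10.7 and 37.6 CPM at 10 against 6.28, 2.78, 4.23 and 0.454 CPM at 0 mg/kg/day; such a complete separation upward was seen for 14.3% of all genes tested in this stratum. Averaged over strata, the log2 fold change was 3.14 ± 0.53 for 10 against 0 mg/kg/day. Cfd (ENSMUSG00000061780, chr10:79890853-79892655) encodes adipsin, the complement factor D protease first known from fat cells. It had 3.56, 31.4 and 162 CPM at 0, 5.06, 36.4 and 670 CPM at 1, and 17.4, 300.5 and 1003 CPM at 10 mg/kg/day as lowest, median and highest. It also did not overlap in Cyp2b-null males, with 126, 107.2 and 611 CPM at 10 against 95.0, 31.4, 36.8 and 9.91 CPM at 0 mg/kg/day, and its log2 fold change averaged over strata was 3.14 ± 0.55.

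Lep (ENSMUSG00000059201, chr6:29060220-29073877) encodes leptin, the hormone by which fat stores restrain food intake, and was the least abundant of the 10. It had 0 counts in 4 libraries at 0, in 1 at 1 and in 1 at 10 mg/kg/day, which allows a level of up to 0.196 to 0.242 CPM in these libraries (3 counts, counting error only). Its lowest, median and highest counts were 0, 8 and 77 at 0, 0, 7 and 103 at 1, and 0, 22 and 185 at 10 mg/kg/day. Cyp2b-null females had 7.501, 1.03, 7.54 and 0.31 CPM at 10 mg/kg/day, against 1.97 CPM in 1 library and 0 in the other 3 at 0. Cyp2b-null males had 0.594, 0.615 and 1.89 CPM at 10, against 2.35, 2.48, 0.923 and 0 CPM at 0 mg/kg/day, so that all 3 lay within the range at 0. The log2 fold change averaged over strata was 1.27 ± 0.60, the smallest among the 4 secreted proteins. Without Cyp2b-null female replicate 1 of the 0 mg/kg/day group that group holds no Lep count, and the fitted value, which then depends on the prior count, was 2.74.

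Plin1 and Cidec encode proteins of the lipid droplet: perilipin 1 coats it, and CIDEC moves lipid between droplets so that they fuse. Plin1 (ENSMUSG00000030546, chr7:79720218-79732903) had 0.17, 4.25 and 32.2 CPM at 0, 0.326, 3.41 and 95.8 CPM at 1, and 1.49, 23.9 and 115.7 CPM at 10 mg/kg/day as lowest, median and highest. Cidec (ENSMUSG00000030278, chr6:113424634-113435760) had 0.484, 4.17 and 25.1 CPM at 0, 0.281, 3.96 and 93.2 CPM at 1, and 2.84, 29.5 and 120 CPM at 10 mg/kg/day. Of the 15 libraries at 10 mg/kg/day, 9 for Plin1 and 10 for Cidec exceeded the highest library at 0 mg/kg/day of their own stratum. The log2 fold changes of 10 against 0 mg/kg/day were 2.12 ± 0.55 for Plin1 and 2.85 ± 0.54 for Cidec.

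Lipe and Fabp4 differed from the rest in having a high level in every library. Lipe (ENSMUSG00000003123, chr7:25379527-25398710) encodes hormone-sensitive lipase, which releases fatty acids from stored fat and is also made in muscle. It had 13.8, 23.4 and 38.3 CPM at 0, 13.3, 22.2 and 79.4 CPM at 1, and 15.8, 38.1 and 101.6 CPM at 10 mg/kg/day. Fabp4 (ENSMUSG00000062515, chr3:10204088-10208576) encodes a fatty acid carrier of fat cells, macrophages and capillary endothelium. It had 91.0, 142.5 and 189 CPM at 0, 92.1, 130 and 503 CPM at 1, and 91.7, 200.5 and 666 CPM at 10 mg/kg/day. The whole range over 48 libraries was 7.32-fold for Fabp4 and 7.64-fold for Lipe, against 282-fold to 1319-fold for Adipoq, Retn, Cfd, Cidec, Plin1 and Cdo1. In the 10 libraries lowest in Adipoq, at 0.0848 to 2.12 CPM, Fabp4 still had 91.0 to 172 CPM and Lipe 13.3 to 23.4 CPM. Their log2 fold changes of 10 against 0 mg/kg/day were 0.99 ± 0.24 for Lipe and 0.75 ± 0.24 for Fabp4. Lipe overlaps the gene 4732471J01Rik on the opposite strand, which had 593 counts over all libraries, and whether counting used strand is not given in the sources used here.

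Pparg (ENSMUSG00000000440, chr6:115360951-115490399), the gene of PPARγ, had 0.614, 2.46 and 6.18 CPM at 0, 1.39, 2.59 and 8.77 CPM at 1, and 1.86, 6.77 and 24.2 CPM at 10 mg/kg/day. In Cyp2b-null females it did not overlap, with 24.2, 7.01, 16.8 and 3.35 CPM at 10 against 3.20, 2.68, 1.29 and 2.42 CPM at 0 mg/kg/day, a separation seen for 7.07% of all genes tested there. No gene of the 10 separated in this way in hCYP2B6-Tg females or males, where 10.4% and 5.69% of all genes did. Its log2 fold change was 1.75 ± 0.31 averaged over strata. Cdo1 (ENSMUSG00000033022, chr18:46713205-46728342) encodes cysteine dioxygenase, an enzyme of cysteine breakdown and taurine synthesis that is abundant in fat and liver. It had 0.263, 3.19 and 14.3 CPM at 0, 0.561, 4.23 and 51.7 CPM at 1, and 2.09, 20.8 and 145 CPM at 10 mg/kg/day, with a log2 fold change of 2.86 ± 0.57 for 10 against 0 mg/kg/day. The highest value at 1 mg/kg/day, 51.7 CPM or 716 counts, came from the library with 27859 counts of Alb, where Adipoq stood at 0.722 CPM.

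Per length of transcript, as RPKM (CPM divided by the deposited gene length in kilobases), the order at 10 mg/kg/day was Cfd (median 326 RPKM), Fabp4 (44.7), Adipoq (19.6), Cidec (15.9), Retn (15.0), Cdo1 (13.6), Lipe (6.47), Plin1 (5.14), Pparg (2.29) and Lep (0.434). At 0 mg/kg/day it was Cfd (34.1), Fabp4 (31.7), Lipe (3.97), Adipoq (3.57), Cidec (2.25), Cdo1 (2.09), Retn (2.06), Plin1 (0.915), Pparg (0.833) and Lep (0.174). At 0 mg/kg/day every library had more Fabp4 than Lipe per length; the ranges of all other neighbours in the order overlapped at both doses. The deposited length of Fabp4, 4489 bases, equals its whole genomic span including introns, so its level per length is understated.

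Taken as a list, 9 of the 10 genes had an adjusted p under 0.05 for a rise in this fit (edgeR's quasi-likelihood test), beside 25.0% of all genes tested. Since the genes were picked on this contrast, nothing is read from the count; Lep was the one without a call. The median log2 fold change of the 10 was 2.42, beside 0.036 over all genes tested. The 10 against 1 mg/kg/day values, which share the libraries of the high dose, had a median of 1.97, with a range of 0.47 ± 0.24 for Fabp4 to 2.74 ± 0.57 for Cidec. Without the 6 libraries marked by Alb or Glycam1 the median of 10 against 0 mg/kg/day was 2.37.

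Single libraries differed widely behind these averages. Summed over the 10 genes, the level had a median of 208 CPM and reached 506 CPM at 0, had a median of 202.6 and reached 1603 CPM at 1, and had a median of 655 and reached 2120 CPM at 10 mg/kg/day. Of the 15 libraries with the most Adipoq, 1 came from 0, 3 from 1 and 11 from 10 mg/kg/day. The 15 with the least held 7 from 0, 7 from 1 and 1 from 10 mg/kg/day. The high libraries were thus mostly, but not all, from the high dose. At 1 mg/kg/day they were hCYP2B6-Tg female replicate 1 and hCYP2B6-Tg male replicates 1 and 2, with sums of 1603, 1402 and 621 CPM, and none of these had a count of Glycam1. At 0 mg/kg/day the library was hCYP2B6-Tg female replicate 4, with a sum of 506 CPM and 312 counts of Glycam1. All libraries marked by Glycam1 were high in Adipoq, at ranks 6, 7, 8, 11 and 13 of the 48. The libraries at ranks 1 to 5 had 0 or 1 counts of Glycam1. The part of lymph node tissue in these levels was not tested. The lowest sums at 10 mg/kg/day were 136.9 CPM in hCYP2B6-Tg male replicate 1, 209 CPM in hCYP2B6-Tg female replicate 2 and 252 CPM in Cyp2b-null female replicate 4, within the range at 0 mg/kg/day. The 9 libraries with the most Adipoq were among the 15 highest for all 10 genes.

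The size of the difference was also read in each of the 4 strata. The median log2 fold change of the 10 genes for 10 against 0 mg/kg/day was 1.69 in hCYP2B6-Tg females, 2.92 in hCYP2B6-Tg males, 3.31 in Cyp2b-null females and 1.68 in Cyp2b-null males. Retn, for example, gave 2.06 ± 1.00 in hCYP2B6-Tg females, 4.01 ± 1.04 in hCYP2B6-Tg males, 4.00 ± 1.08 in Cyp2b-null females and 2.50 ± 1.10 in Cyp2b-null males. Lep had the only negative value, -0.43 ± 1.29 in Cyp2b-null males. Each stratum rests on few libraries. In hCYP2B6-Tg males the median was 2.1 without replicate 2 of the 10 mg/kg/day group and 3.96 without replicate 5 of the 0 mg/kg/day group. Without Cyp2b-null male replicate 3 of the 10 mg/kg/day group, which carried 41 counts of Glycam1, that stratum's median was 0.533. Without hCYP2B6-Tg female replicate 3 of the 10 mg/kg/day group it was 0.934 in that stratum, without Cyp2b-null female replicate 1 of the 0 mg/kg/day group it was 4.99 in Cyp2b-null females, and without hCYP2B6-Tg female replicate 4 of the 0 mg/kg/day group it was 2.64 in hCYP2B6-Tg females. Without all 6 marked libraries the medians were 2.73 in hCYP2B6-Tg females, 2.84 in hCYP2B6-Tg males, 3.14 in Cyp2b-null females and 0.553 in Cyp2b-null males.

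**Figure D2:**
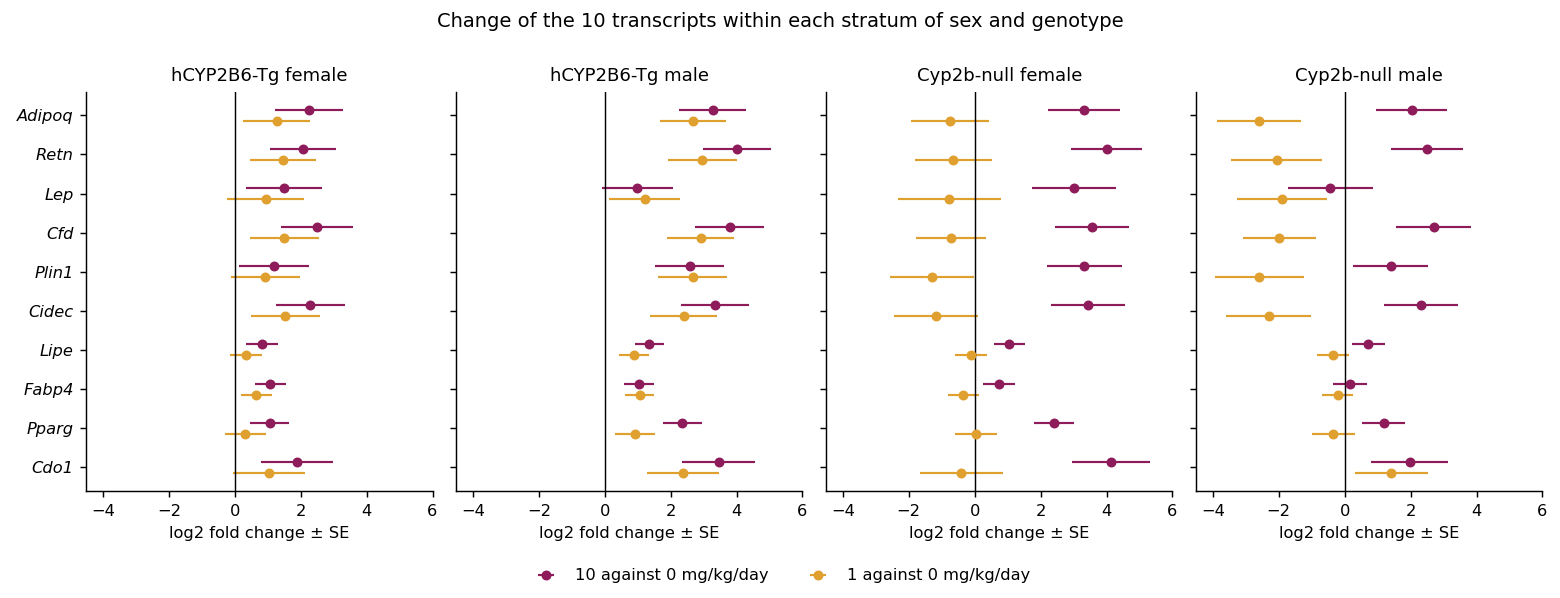
Log2 fold change (x axis, ± SE as horizontal bars) of each of the 10 transcripts in the 4 strata, for 10 against 0 and for 1 against 0 mg/kg/day, from 1 fit over 48 libraries. At 10 mg/kg/day the values lie above 0 except for Lep in Cyp2b-null males; at 1 mg/kg/day they lie above 0 in hCYP2B6-Tg mice and, except for Pparg in females and Cdo1 in males, below 0 in Cyp2b-null mice.

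The differences between strata were tested, since they are not the dose contrast on which the genes were picked. Earlier results of these data were known at that choice, so the tests are not fully free of it. The last of the 3 contrasts, on the difference of the sex differences, was itself chosen with earlier values of the strata known. For the female minus male difference in the effect of 10 against 0 mg/kg/day, 0 of the 10 genes passed (edgeR's quasi-likelihood test, lowest adjusted p = 0.666), beside 0.128% of all genes, and the values ran from -0.22 to 1.98 ± 1.2 for Lep. For the hCYP2B6-Tg minus Cyp2b-null difference 0 of 10 passed (edgeR, lowest adjusted p = 0.732), beside 0% of all genes, with values from -0.47 to 0.61. For the difference of the sex differences between the genotypes 0 of 10 passed (edgeR, lowest adjusted p = 0.313), beside 0.918% of all genes. All 10 values of that last contrast were negative, with Pparg at -2.53 ± 1.22 and Cdo1 at -3.74 ± 2.23. An unadjusted p under 0.05 was reached by 0, 0 and 1 of the 10 genes in these 3 contrasts. Without the 6 marked libraries the medians of the 10 genes were 0.877 in place of 0.08 for the sexes, 0.988 in place of -0.05 for the genotypes and -2.28 in place of -2.41 for the last contrast, with 1, 0 and 0 genes at an unadjusted p under 0.05. With the replicate number as a block the last contrast had a median of -4.21 and 7 genes at an unadjusted p under 0.05, and 0 passed. DESeq2 and limma voom called 0 of 10 in each. For the genotype difference 1378 of all genes had an unadjusted p under 0.05 in edgeR, and DESeq2 called 4 genes and limma voom 0. For Adipoq the sex difference was 0.12, with a 95% interval from -1.97 to 2.21 on the log2 scale.

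When 1 was compared with 0 mg/kg/day over all strata, 0 of the 10 genes passed (edgeR's quasi-likelihood test, adjusted p = 1 for each), beside 0% of all genes. This comparison, like those within strata below, shares its 0 mg/kg/day libraries with the contrast on which the genes were picked. An unadjusted p under 0.05 was reached by 0 of the 10 and by 578 of all genes in edgeR; DESeq2 called 0 of the 10 and 1 gene in all, and limma voom called 0 genes. The log2 fold changes ran from -0.13 ± 0.63 for Lep to 1.11 ± 0.57 for Cdo1, with a median of 0.21. The value of Cdo1 was 0.137 without Cyp2b-null male replicate 2, the library rich in Alb. That of Adipoq was 0.14 ± 0.58, and -0.434 without hCYP2B6-Tg female replicate 1.

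Within strata the values at 1 mg/kg/day pointed in different directions. Adipoq was at 1.27 ± 1.02 in hCYP2B6-Tg females and 2.67 ± 1.00 in hCYP2B6-Tg males, against -0.76 ± 1.18 in Cyp2b-null females and -2.60 ± 1.28 in Cyp2b-null males. The value in hCYP2B6-Tg females rests on replicate 1, with 77.1 CPM against 2.37 to 7.76 CPM in the others at 1 mg/kg/day. In the same order of strata, the medians of Adipoq were 5.81, 3.15, 2.11 and 6.90 CPM at 0. At 1 mg/kg/day they were 5.605, 23.0, 2.32 and 0.728 CPM. After the log2 fold changes within strata had been seen, the hCYP2B6-Tg minus Cyp2b-null difference in the effect of 1 against 0 mg/kg/day was tested. It was 3.64 ± 1.13 for Adipoq, 3.57 ± 1.15 for Retn, 3.55 ± 1.06 for Cfd and 0.77 ± 0.63 for Pparg, and all 10 values were positive. None of the 10 passed (edgeR, adjusted p = 1 for each), beside 0% of all genes, while an unadjusted p under 0.05 was reached by 6 of the 10 and by 494 of the 15583 genes. DESeq2 called 3 genes in all and limma voom 0, none of them among the 10. The number of the 10 with an unadjusted p under 0.05 was 1 with limma voom, 7 with the replicate block, and 8 both without the filter on low counts and without the 6 marked libraries, where the median of the 10 was 3.66 in place of 2.98. The 6 genes are not independent of each other, since they vary together.

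At 0 mg/kg/day the sexes and the genotypes were compared in mice without PFOS. For females against males 0 of 10 passed (edgeR, lowest adjusted p = 0.588), beside 7.59% of all genes, with log2 fold changes from -0.94 ± 0.87 for Lep to 0.85 ± 0.78 for Retn. For hCYP2B6-Tg against Cyp2b-null 0 of 10 passed (edgeR, adjusted p = 1 for each), beside 0% of all genes, with values from -0.12 ± 0.33 for Fabp4 to 0.67 ± 0.87 for Lep. No gene of the 10 reached an unadjusted p under 0.05 in either, and DESeq2 and limma voom called 0 of 10 in both. Between the genotypes 535 of all genes reached an unadjusted p under 0.05 in edgeR, and DESeq2 called 9 genes and limma voom 5. For Adipoq the 95% interval was -1.36 to 1.68 for the sexes and -1.46 to 1.58 for the genotypes on the log2 scale.

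To describe how tightly the genes varied together, each gene's group mean was subtracted from its log2 CPM (prior count 2) and the residuals were correlated over the 48 libraries. The points share library composition and depth, so the coefficients are given without p. The median Pearson r of the 45 pairs was 0.82, and 31 pairs reached 0.8. The first principal component held 85% of the within-group variance and the second 7.2%. Adipoq and Plin1 were closest (r = 0.98, Spearman's rho = 0.97), and the 10 pairs among Adipoq, Retn, Cfd, Cidec and Plin1 had a median r of 0.96. Lep, in spite of its low counts, had an r of 0.89 with the mean of the other 9 genes. Over all other genes tested the median r with the mean standardised residual of the 10 was -0.03, and 22 of 15573 genes reached 0.9.

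**Figure D3:**
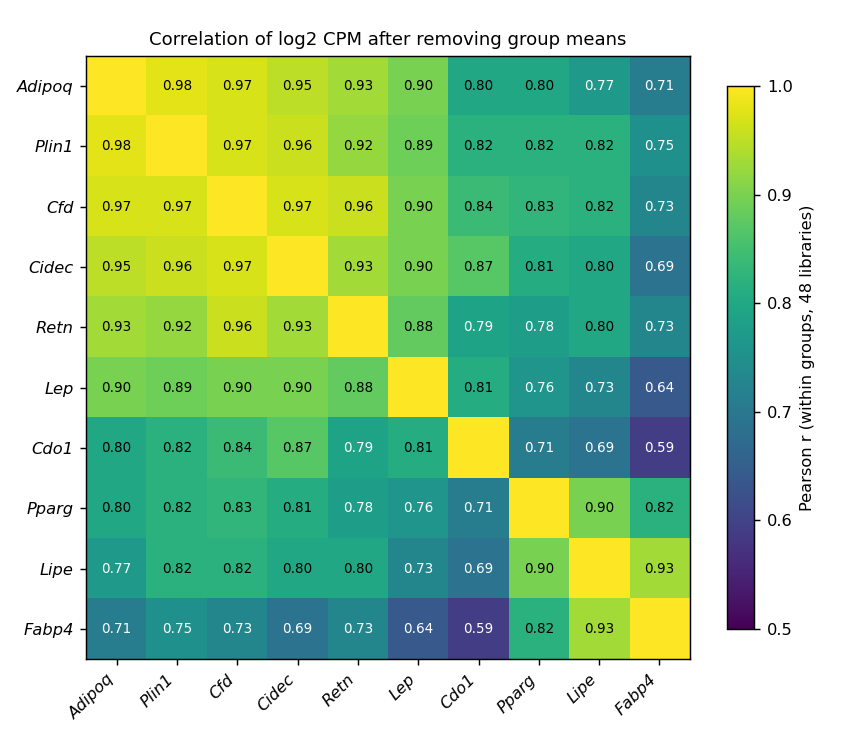
Pearson correlation of within-group log2 CPM over 48 libraries for each pair of the 10 transcripts, from 0.59 (Fabp4 and Cdo1) to 0.98 (Adipoq and Plin1). The upper left block holds Adipoq, Plin1, Cfd, Cidec, Retn and Lep, and Pparg, Lipe and Fabp4 stand at the lower right.

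Fabp4, Lipe and Pparg followed each other and, less closely for Fabp4, the other genes. Fabp4 correlated at 0.93 with Lipe and 0.82 with Pparg, against 0.59 to 0.75 with the other 7 genes. Lipe correlated at 0.90 with Pparg and at 0.82 with Cfd and Plin1, and Pparg at 0.83 with Cfd and 0.82 with Plin1, as high as with Fabp4. For each doubling of Adipoq within groups, Fabp4 changed by 0.29, Lipe by 0.32 and Pparg by 0.42 on the log2 scale, against 0.81 to 1.05 for the other 6 genes. Cdo1 correlated at 0.83 with the mean of the other 9. Leaving out the 1 library rich in Alb brought this to 0.91, and without the 6 marked libraries its r with Adipoq was 0.93 in place of 0.80. The median r over pairs was 0.89 without these 6 libraries and 0.85 when the group means were kept.

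**Figure D4:**
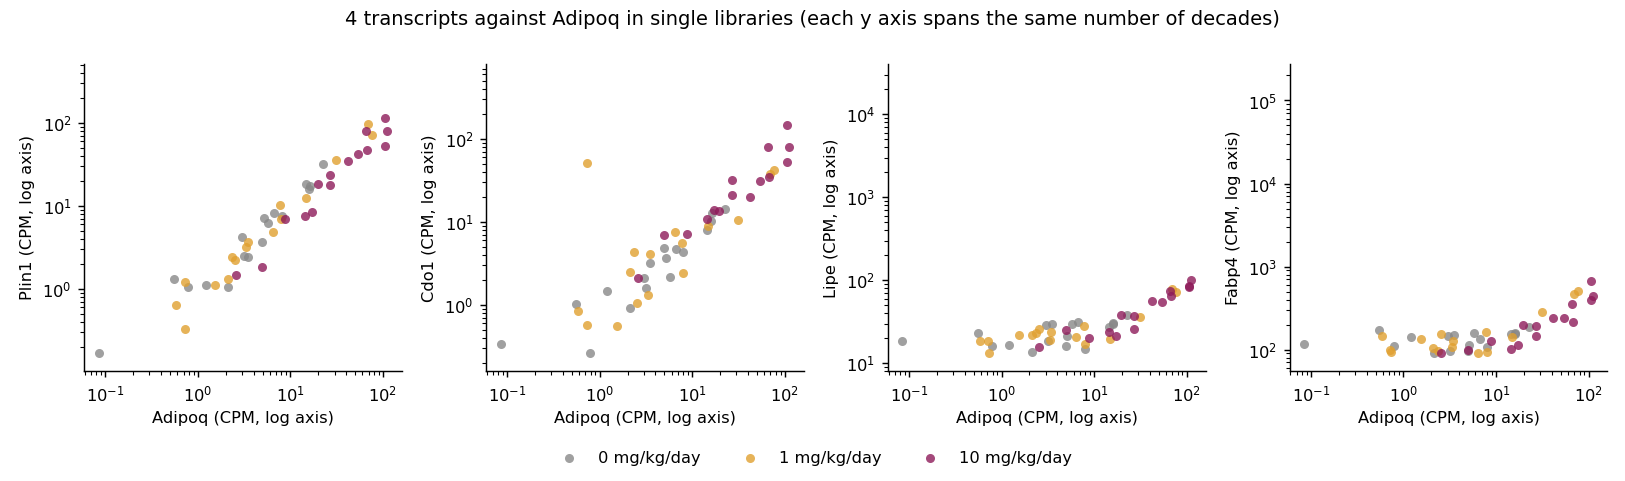
Level of Plin1, Cdo1, Lipe and Fabp4 (y axes) against that of Adipoq (x axis) in the 48 libraries, in CPM on log axes, coloured by PFOS dose. Plin1 and Cdo1 follow Adipoq over its whole range, apart from the library with 51.7 CPM of Cdo1, while Lipe and Fabp4 have a high level also in the libraries lowest in Adipoq.

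Although the genes moved together, the median ratios of several to Adipoq differed between the doses. Ratios to Adipoq were taken in the 24 libraries with at least 100 Adipoq counts, 5 at 0, 6 at 1 and 13 at 10 mg/kg/day; they are a description, since the libraries were selected by level. The ratio of Lep to Adipoq had a median of 0.155 at 0, 0.107 at 1 and 0.0412 at 10 mg/kg/day. With the high dose it ran from 0.0195 to 0.14 and at 0 from 0.124 to 0.397, so that 12 of the 13 libraries at 10 lay below all 5 at 0 mg/kg/day. The lowest ratio came from hCYP2B6-Tg male replicate 4, with 257 counts of Adipoq, and so rests on few counts of Lep. How many other genes separate from Adipoq in this way was not counted. The ratio of Retn ran the other way, with medians of 0.388 at 0, 0.611 at 1 and 0.706 at 10 mg/kg/day. Its ranges overlapped, with 0.325 to 0.684 at 0 and 0.522 to 1.39 at 10 mg/kg/day. The 3 highest ratios of Retn, 1.05, 1.17 and 1.39, were those of Cyp2b-null females at 10 mg/kg/day. Cfd had medians of 5.87, 7.58 and 8.76 and Plin1 of 1.07, 1.05 and 0.794 at 0, 1 and 10 mg/kg/day, with overlapping ranges. Fabp4 had medians of 9.75, 9.31 and 5.74, Lipe of 1.85, 1.24 and 1.13, and Cidec of 1.00, 0.961 and 1.09. Pparg had medians of 0.242, 0.158 and 0.21, and Cdo1 of 0.637, 0.54 and 0.747. Fabp4 and Lipe changed by only 0.29 and 0.32 per doubling of Adipoq, so their ratios are lower where Adipoq is high. Dose and level of Adipoq cannot be told apart in these ratios.

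**Figure D5:**
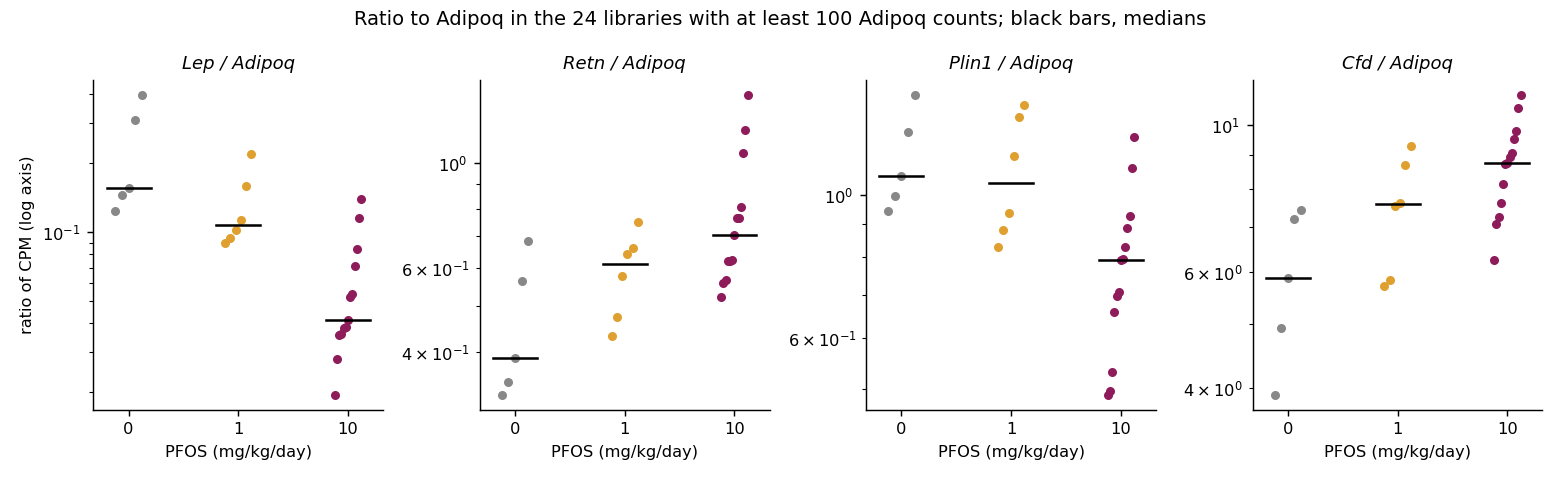
Ratio of the CPM of Lep, Retn, Plin1 and Cfd to that of Adipoq (log axes) by PFOS dose (mg/kg/day) in the 24 libraries with at least 100 Adipoq counts; black bars are medians. Lep per Adipoq is lowest at 10 mg/kg/day, with a median of 0.0412, and Retn and Cfd per Adipoq are lowest at 0.

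Outside the 10 genes, those whose within-group variation was most like theirs were found over all genes tested, by Pearson r with the mean standardised residual of the 10 over 48 libraries. The highest were Slc1a5 (r = 0.951), a transporter of glutamine, Lgals12 (0.948), a galectin of fat cell droplets, Car5b (0.947), a mitochondrial carbonic anhydrase, Pde3b (0.944), the phosphodiesterase through which insulin restrains lipolysis, and Prkar2b (0.940), a regulatory subunit of protein kinase A. Ifi27l2a (0.933), Phgdh (0.927), the first enzyme of serine synthesis, and Aoc3 (0.924), an amine oxidase, followed, together with 2 predicted genes. All 8 named genes rose at the high dose relative to 0 mg/kg/day (edgeR, adjusted p of 1.24e-06 to 0.0185), beside 25.0% of all genes; they were picked for likeness to genes chosen for a rise at this dose, so the count supports nothing. Car5b averaged 12.1 CPM at 10 and 1.54 CPM at 0, Slc1a5 69.6 and 20.2 CPM, and Aoc3 16.4 and 8.0 CPM.

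Further genes of fat cells were read in 5 lists, assembled with earlier results of these data known and therefore no independent evidence of a direction. Of their 53 genes, none of them among the 10, 25 rose and 9 fell at 10 against 0 mg/kg/day (edgeR, adjusted p under 0.05), beside 25.0% and 22.5% of all genes tested, with a median log2 fold change of 0.49. With library totals left unscaled, which raised the median of all genes to 0.26 and gave 7520 rises and 1642 falls in place of 3892 and 3511, 34 rose and 6 fell. No called gene of any list changed sign under another scaling. At 1 against 0 mg/kg/day 0 of the 53 passed in edgeR, with 5 at an unadjusted p under 0.05.

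Of 16 other fat cell markers, 9 rose and 2 fell, beside 25.0% and 22.5% of all genes tested. Trarg1, a protein of insulin-responsive glucose transporter vesicles, averaged 7.41 CPM at 10 and 1.52 CPM at 0 mg/kg/day (log2 fold change 2.12 ± 0.35, edgeR adjusted p = 4.69e-06). Adig, adipogenin, averaged 6.88 and 1.42 CPM (2.17 ± 0.40, adjusted p = 2.05e-05), and Thrsp, a lipogenic nuclear protein, 45.7 and 10.6 CPM (1.61 ± 0.31, adjusted p = 3.29e-05). Car3, a carbonic anhydrase abundant in muscle as well as fat, fell to 1870 CPM at 10, against 3133 CPM at 0 mg/kg/day (-0.74 ± 0.12, adjusted p = 4.17e-06). The other 5 of the 16 did not pass.

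Of 8 genes of triglyceride synthesis 5 rose and 2 fell, beside 25.0% and 22.5% of all genes tested. Pck1, which supplies glycerol phosphate in fat cells, averaged 51.6 CPM at 10 and 6.94 CPM at 0 mg/kg/day (2.78 ± 0.65), Lpin1, a phosphatidate phosphatase, 696 and 444 CPM (0.65 ± 0.099), and Dgat1, which adds the last fatty acid, 21.2 and 11.8 CPM (0.83 ± 0.16). Gpd1 and Gpam, at the start of the pathway, fell by 0.90 ± 0.10 and 0.77 ± 0.085; Gpd1 averaged 400 CPM at 10 and 726 CPM at 0 mg/kg/day. Within groups Pck1 had an r of 0.88 with the 10 genes and Lpin1 of -0.03. Pck1, and below Adrb3 and Cebpa, were named after their values were seen.

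Of 14 genes of lipid droplets and lipolysis 4 rose and 2 fell, beside 25.0% and 22.5% of all genes tested. Pnpla2, the first lipase of the droplet, averaged 420 CPM at 10 and 232 CPM at 0 mg/kg/day (0.83 ± 0.14), Plin4 559 and 331 CPM (0.66 ± 0.13) and Bscl2, the seipin of droplet formation, 24.6 and 16.3 CPM (0.57 ± 0.11). Fitm1, a droplet protein of muscle, fell by 0.62 ± 0.087. Within groups the r with the 10 genes was 0.38 for Pnpla2 and 0.02 for Plin4, against 0.92 for Adrb3, the beta receptor of fat cells.

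Of 10 transcription factors 6 rose and 2 fell, beside 25.0% and 22.5% of all genes tested. Cebpa, the partner of PPARγ in fat cell formation, averaged 23.3 CPM at 10 and 5.40 CPM at 0 mg/kg/day (2.08 ± 0.39) and had an r of 0.92 with the 10 genes. Cebpd, another C/EBP factor, at 86.8 and 16.9 CPM (2.11 ± 0.26), had an r of -0.28. Its log2 fold change was 3.50 ± 0.55 in hCYP2B6-Tg females, 2.21 ± 0.49 in hCYP2B6-Tg males, -0.09 ± 0.50 in Cyp2b-null females and 2.82 ± 0.55 in Cyp2b-null males, while Cebpa was at 1.76 to 2.44 in the 4 strata. Klf15, a factor of muscle and fat, averaged 87.8 and 49.9 CPM (0.77 ± 0.13), with an r of -0.15. Nr1h3, the liver X receptor alpha gene, averaged 25.5 and 16.3 CPM (0.66 ± 0.063), and Rxrg, a retinoid X receptor of muscle, fell to 42.3 CPM, against 79.0 CPM (-0.93 ± 0.13). Of 5 receptors for the secreted hormones and their partners, Adipor2 rose by 0.28 ± 0.043 and Cdh13, which binds adiponectin, fell by 0.73 ± 0.093. The other 3, named after their values were seen, did not pass: Adipor1 was at 0.03 ± 0.059, Lepr at 0.49 ± 0.22 and Appl1 at -0.09 ± 0.057.

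Markers of other cells that a dissected muscle could hold were read beside these values. Their rises and falls stand beside 25.0% and 22.5% of all genes tested, and a share near these does not set a list apart. Of 5 tested brown fat markers 0 rose and 2 fell (Dio2 and Cox8b). Whether these falls stem from brown fat was not tested. Ucp1, named after its values were seen, was at 0.0653 ± 450 averaged over strata, which cannot show a direction. It averaged 0.383 CPM (SD 0.991) at 10 and 0.072 CPM (SD 0.212) at 0 mg/kg/day, so its values by stratum rest on few counts. By stratum it was at 7.38 ± 1.9 for hCYP2B6-Tg males (edgeR, adjusted p = 0.00857). With DESeq2 size factors in edgeR, 1247 of 15583 genes rose in that stratum. Other strata did not pass, with -3.91 ± 2.6 (Cyp2b-null males) and -3.21 ± 1.9 (hCYP2B6-Tg females). In Cyp2b-null females the fit gave 0 with an SE of 0, which measures no change. Of 6 progenitor markers 2 rose (Pdgfra and Dpp4) and 1 fell (Col15a1, by 1.73 ± 0.12), of 8 endothelial markers 2 rose (Flt1 and Pecam1) and 1 fell (Kdr), and of 8 macrophage markers 4 rose (Cd68, Cd163, C1qa and C1qc) and 0 fell. Of 6 tendon markers 0 rose and 2 fell (Tnmd and Thbs4), and of 6 muscle fibre markers 1 rose (Actn3) and 5 fell, led by Acta1, Mylpf and Myh4. The summed macrophage markers were at 23.6 to 62.7 CPM at 10 and 9.04 to 77.3 CPM at 0 mg/kg/day, and the endothelial sum at 246 to 475 and 229 to 545 CPM. The ranges of both sums overlapped between the doses.

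Of 10 tested lymph node and lymphocyte markers 8 rose, led by Cd79a, Ms4a1 and Cd3g, and 1 fell (Ighm), beside 25.0% and 22.5% of all genes. The sums of these markers were 3.41 to 191 CPM at 10 and 16.3 to 350 CPM at 0 mg/kg/day. Without the 6 marked libraries only 4 of them passed the filter, of which 0 rose and 2 fell (edgeR). Of all 15581 genes then tested, 3312 rose and 2837 fell. Macrophage markers that rose were 2 in place of 4. Rises among progenitor, endothelial and liver markers were then 1, 1 and 0 in place of 2, 2 and 1, and Krt10 of the skin list no longer passed. The 5 further lists of fat cell genes held 25 rises without these libraries too. Only 4 of 10 liver markers passed the filter, and 1 of them rose (Apoc3). Of the 6 skin and mammary markers only Krt10 was tested, which fell, and Wap had 0 counts in all libraries.

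Within groups the 6 nerve markers followed the 10 genes most closely among these lists, with a median r of 0.54, against 0.40 for macrophage, 0.39 for endothelial and -0.55 for muscle fibre markers. The nerve sum was 36.9 to 706 CPM at 0, 41.4 to 430 CPM at 1 and 52.8 to 343 CPM at 10 mg/kg/day. The part of these tissues in the results was not tested.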

How the data were processed

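Messenger RNA of gastrocnemius was sequenced in 48 libraries. The read counts per gene and library are as deposited by the authors, raw whole numbers that were not normalized; the same table gives a gene length in bases (another unit), also deposited by the authors. Reads were aligned with HISAT2 to GRCm39, per the submitters' processing notes, without a version; the coordinates of the deposited table are those of GRCm38. The sources used here do not give the counting program or its use of strand.

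Genes were filtered with filterByExpr, scaled by TMM and fitted over all 12 groups with edgeR 4.0.16 (quasi-likelihood F test, 36 residual degrees of freedom; the biological coefficient of variation was 23.5%) in R 4.3.3, with Benjamini-Hochberg adjustment over 15583 genes and a threshold of 0.05. CPM values use TMM-scaled totals. Alternatives were limma 3.58.1 (voom with quality weights), DESeq2 1.42.0, other scaling, filters, a replicate block and leaving out libraries. The quality weights give outlying libraries less weight, and limma voom stands for this form throughout. The 10 genes, the gene lists and the libraries left out together were chosen with earlier results of these data known. Named were the 10 genes, up to 4 called genes of each list with the smallest p, and the 10 genes most like the members by r, of which predicted genes were only counted; others are marked as named after their values were seen. All 126 list symbols matched, Trarg1 through an older symbol.

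On simulated data with 15228 genes, the fit for 10 against 0 mg/kg/day recovered 71.4% of genes changed by 0.75 and 94.0% of those changed by 1.5 (log2), with 10 false calls. In it 100 genes were changed at each size, against 7403 called in the data, and each gene's noise was drawn independently. The simulation covered only the contrast averaged over strata, not the strata or the differences between them. Total counts were 11571142 to 19921061. No library was a repeat of another within the 73 pairs of the same group (lowest chi-square per degree of freedom 7.24). The 110 combinations of gene and group with at least 4 libraries were examined for a library far from the rest.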

Additional observations from a re-analysis of the deposited data

Results flagged for a closer look

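Within groups of 4 or 5 libraries, 6 of 110 combinations of gene and group held a library far from the rest. A chance rate of about 1 in 20 would need independent, normally spread values. The genes vary together, and the rate was not tested on these data. Adipoq had 3.33 CPM in Cyp2b-null male replicate 4 of the 1 mg/kg/day group, and 0.583 to 0.734 CPM in the others of its group. Lep had 1.97 CPM in Cyp2b-null female replicate 1 of the 0 mg/kg/day group, and 0 counts in the other 3. Lipe had 71.4 CPM in hCYP2B6-Tg female replicate 1 of the 1 mg/kg/day group, where the others had 23.3 to 27.8 CPM, and 13.3 CPM in Cyp2b-null male replicate 1 of the 1 mg/kg/day group, where the others had 18.4 to 19.0 CPM. Cdo1 had 41.7 CPM in hCYP2B6-Tg female replicate 1 of the 1 mg/kg/day group, where the others had 4.09 to 5.60 CPM. Cdo1 also had 51.7 CPM in Cyp2b-null male replicate 2 of the 1 mg/kg/day group, the library with 27859 counts of Alb, where the others had 0.571 to 1.33 CPM.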

How the results depend on the processing

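The median log2 fold change of the 10 genes for 10 against 0 mg/kg/day was 2.42, and 2.11 to 2.94 with each library left out in turn; for 10 against 1 mg/kg/day it was 1.71 to 2.42. The 53 further fat cell genes gave 23 to 27 rises. In the contrasts tested on the 10 genes, 0 of 10 passed under every scaling, filter, tool and left-out library that was run. Lep at 10 against 0 mg/kg/day was at 1.27, and at 1.52 with library totals unscaled, 1.78 with limma voom and 0.984 to 2.74 with each library left out; the cause was not tested. At 1 against 0 mg/kg/day, without hCYP2B6-Tg female replicate 1, Adipoq was at -0.43 and Cfd at -0.09, and without Cyp2b-null female replicate 1 at 0 mg/kg/day Lep was at 1.35. The median r was 0.81 to 0.89 over its alternatives.

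Replicate numbers did not pair the samples: 2 of 15 pairs had a correlation over 0.1, with a range of -0.24 to 0.21. With the replicate block the median for 10 against 0 mg/kg/day was 2.82 with Lep at 1.56, the median in hCYP2B6-Tg males was 4.52, and for 10 against 1 mg/kg/day the median was 2.09. The block gave 26 rises among the 53 genes, and 0 of the 10 genes passed with it in the contrasts tested on them, which were 1 against 0 mg/kg/day, the sexes and genotypes at 0 mg/kg/day, and the differences between sexes and genotypes. Lep rests on 0 to 185 counts per library, which limits its precision.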
